A study of Mus musculus with 8 samples.

Results

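The respiratory chain genes described here are the rows of the gene tables whose symbols begin as the subunits of complexes I to V do: Nduf with a, b, c, s or v and a number, Sdha to Sdhd, Uqcr, Cox4 to Cox8, Atp5, and the mitochondrial mt-Nd, mt-Co, mt-Atp and mt-Cytb. The rule used names only, and it found 101 of 45706 genes. Of these, 82 were subunits encoded in the nucleus, 13 were mRNAs encoded by mitochondrial DNA, 4 were pseudogenes and 2 (Atp5s and Atp5sl) bear an Atp5 name without being subunits. Nuclear subunits numbered 35 in complex I, 4 in complex II, 8 in complex III, 20 in complex IV and 15 in complex V. Mitochondrial mRNAs numbered 7 in complex I, 1 in complex III, 3 in complex IV and 2 in complex V. Ndufa4 and Ndufa4l2, once counted with complex I, are counted here with complex IV.

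The libraries were made from natural killer (NK) cells of BALB/c mice with tumours under the skin, grown from the colorectal carcinoma line CT26 after deletion of its gene for β2-microglobulin (CT26_β2m-/-). The 4 tuNK libraries are titled as tumour-infiltrating NK cells and the 4 spNK libraries as splenic NK cells, and the design text asks how the profiles of the NK cells at both sites compare. The tissue tag of each of the 8 samples names the other tissue than its title does, so tuNK and spNK below mean the titles. Cells were sorted magnetically and by flow cytometry after enzymatic digestion, by markers not named in the labels, with a Percoll gradient for the tumours, and polyadenylated RNA was sequenced. The labels do not say that the replicates came from separate mice, so each p-value reflects only how far these samples spread, which may be technical.

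Respiratory complexes sit in the inner mitochondrial membrane. Complexes I and II pass electrons from NADH and succinate to ubiquinone, complex III passes them to cytochrome c, complex IV passes them to oxygen, and complex V (ATP synthase) uses the proton gradient that complexes I, III and IV build. Complex II is encoded wholly in the nucleus, whereas the other complexes join nuclear subunits, made on cytosolic ribosomes and imported, to a few membrane subunits made inside the organelle. Mitochondrial DNA is transcribed from both strands into long precursors that are cut at the tRNAs between the genes, so that levels of single mitochondrial mRNAs depend on processing and decay as well as on transcription. NK cells draw on oxidative phosphorylation when cytokines activate them.

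Estimated counts summed to between 38745733 and 45404059 in tuNK libraries and to between 40560781 and 53886933 in spNK libraries. Both groups held the defining NK genes, but at different levels: Ncr1, the activating receptor NKp46, averaged 312 ± 45.9 CPM (TMM-scaled counts per 1000000 counts) in tuNK and 1469 ± 223 CPM in spNK (SD, n = 4 each). The summed level of 17 NK genes ran from 4465 to 6256 CPM in tuNK and from 13960 to 19732 CPM in spNK, and 17 of 17 were called lower in tuNK. For 36 genes expressed across leukocytes the sums ran from 5376 to 7030 CPM in tuNK and from 17443 to 22132 CPM in spNK, with 35 of 36 called lower. Mesenchymal and tumour cell genes went the other way, and 16 of the 17 tested were called higher in tuNK. Their sums lay between 10441 and 12181 CPM in tuNK and between 1127 and 1277 CPM in spNK. Vim made up most of the sum of this list in both groups, averaging 7391 CPM in tuNK and 1165 CPM in spNK. Col1a2, the next highest in tuNK, averaged 1861 CPM in tuNK and 1.42 CPM in spNK. Col5a2, Col6a1, Lum and Pdgfra of that list had no count in any spNK library. These marker lists moved with every comparison below, and their part in the differences of respiratory chain genes was not tested. In bulk libraries, fewer cells of a type and less RNA per cell cannot be told apart.

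The nuclear and the mitochondrial genes of the respiratory chain did not move together. Of 78 nuclear subunits tested, 40 were higher in tuNK, 5 were lower and 33 were not called, at an adjusted p under 0.05 from the quasi-likelihood test of edgeR. Over all 14006 genes tested, 35.6% were called higher and 34.0% lower, 69.6% in all. The median log2 fold change was 0.27 for nuclear subunits and 0.02 for all genes tested. Of the 13 mitochondrial mRNAs, 7 were lower in tuNK and 6 were not called, with a median of -0.36, or -0.84 without tuNK 3. All 13 mitochondrial fold changes were negative with TMM scaling, so no threshold in that fit could call any of them higher. By DESeq2 or by limma-voom 0 were called higher. The lower nuclear subunits were Ndufb7, Sdha, Ndufa4, Atp5h and Cox6b2, and 3 of them remained lower without spNK 2. The filter on low counts was passed through 1 group only by 3 of the tested nuclear subunits (Ndufa4l2 and Cox6a2 through tuNK, Cox6b2 through spNK), and among the other 75 the counts were 39 higher and 4 lower, with the same median of 0.27.

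These calls depend on how libraries are scaled. With scaling to the 36 leukocyte genes, the median of all genes moved to 1.72, and 77 nuclear subunits were called higher and 1 lower, with 12 mitochondrial mRNAs higher and 0 lower. With that scaling 78.0% of all genes were higher and 6.11% lower, 84.1% in all. By library size alone, 29 of 78 nuclear subunits were higher and 16 lower, against 4329 and 5510 of all 14006 genes. On the TPM scale (transcripts per 1000000, which divides by transcript length), 24 of 78 were higher and 24 lower with an offset of 0.1. All 14006 genes then gave 4013 higher and 5546 lower, the background for each count on the TPM scale below. The median log2 fold change of mitochondrial mRNAs minus that of nuclear subunits was -0.63 with TMM and lay between -1.06 and -0.59 under 22 alternatives. Its lowest value came from leaving out tuNK 3.

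**Figure D1:**
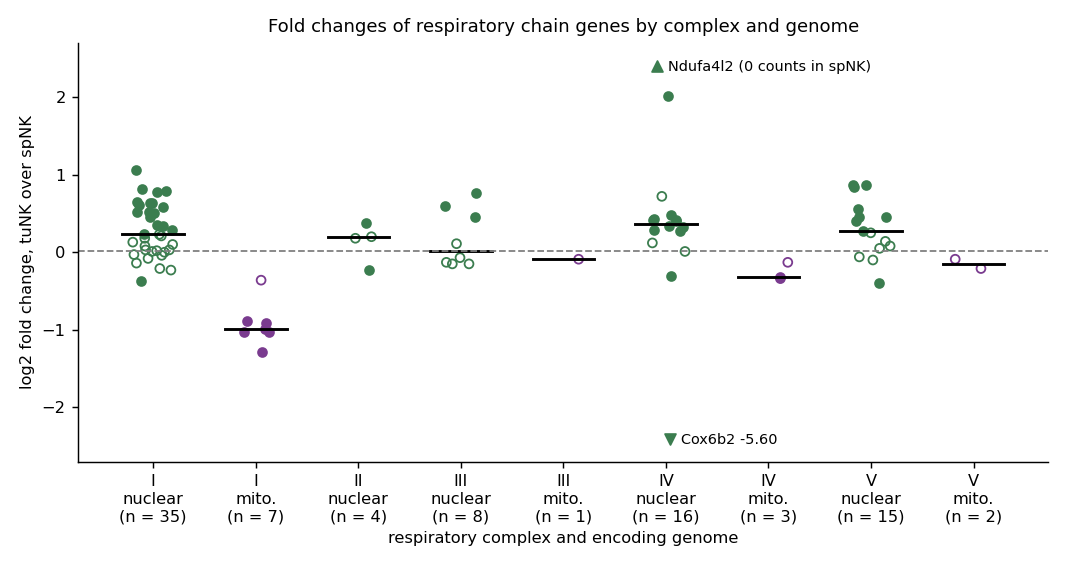
Log2 fold change of each tested subunit gene (tuNK over spNK, TMM scaling; vertical axis), by complex and encoding genome (horizontal axis). Filled points passed the test, open points did not, black bars are medians, the dashed line is the median of all genes tested, and triangles mark Ndufa4l2 and Cox6b2, which lie beyond the axis. The 7 mitochondrial mRNAs of complex I have a median of -0.99 and the 35 nuclear subunits of complex I a median of 0.23; with leukocyte scaling 6 of those 7 mRNAs are called higher in tuNK.

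The mitochondrial mRNAs of complex I, which encode the proton-pumping membrane core of NADH dehydrogenase, stood lowest. With TMM scaling 6 of 7 were lower in tuNK, with no overlap between the groups in any of the 6, whereas 5 of the 6 called lower rose with leukocyte scaling. Over all genes tested, 32.7% had every tuNK library below every spNK library, 34.4% had every one above, and 67.1% thus did not overlap. mt-Nd1 had 774, 1540, 1527 and 1202 CPM in tuNK 1 to 4, against 2590, 2358, 2205 and 2311 CPM in spNK 1 to 4. Every tuNK library thus lay below every spNK library, at a log2 fold change of -0.91 ± 0.19 (SE; adjusted p = 0.00162).

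mt-Nd2 had 563, 914, 817 and 707 CPM in tuNK, against 1755, 1489, 1370 and 1533 CPM in spNK, a log2 fold change of -1.03 ± 0.15 (adjusted p = 8.68e-05). mt-Nd4 had 706, 1325, 1343 and 1023 CPM in tuNK, against 2518, 2149, 1840 and 2232 CPM in spNK, a log2 fold change of -0.99 ± 0.19 (adjusted p = 0.000964). In both genes tuNK 1 was the lowest library, and the groups did not overlap. mt-Nd5 had 569, 932, 896 and 720 CPM in tuNK, against 1658, 1445, 1266 and 1362 CPM in spNK, a log2 fold change of -0.88 ± 0.16 (adjusted p = 0.000445). mt-Nd3 had 119, 120, 105 and 88.4 CPM in tuNK, against 251, 158, 278 and 199 CPM in spNK, a log2 fold change of -1.03 ± 0.17 (adjusted p = 0.000346). These genes lie apart on the genome, mt-Nd1 and mt-Nd2 ahead of mt-Co1, and mt-Nd3, mt-Nd4l, mt-Nd4 and mt-Nd5 behind mt-Co3.

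mt-Nd6 is the only mRNA among the 13 read from the other strand. It had 1.71, 2.75, 1.27 and 2.55 CPM in tuNK, against 6.31, 5.20, 3.33 and 5.44 CPM in spNK, a log2 fold change of -1.29 ± 0.33 (adjusted p = 0.00493). It rested on 50 to 118 estimated counts per tuNK library and 163 to 293 per spNK library. Its last bases overlap mt-Nd5 on the opposite strand by 14 bases, and no source used here gives the strand setting of the counting. mt-Nd4l was the member of complex I that did not pass, with 38.7, 70.8, 135 and 50.2 CPM in tuNK against 116, 120, 71.2 and 70.4 CPM in spNK. Its libraries overlapped widely, and the log2 fold change was -0.36 ± 0.39 (adjusted p = 0.436), or -0.84 and past the threshold without tuNK 3. mt-Nd4l shares its last 7 bases with the start of mt-Nd4, with which it forms 1 transcript.

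The mitochondrial mRNAs of complexes III, IV and V lay closer to spNK. Only mt-Co3 of these 6 was called lower in tuNK with TMM scaling, and their median was -0.17. By library size alone 3 of the 6 were lower (median -0.35), on the TPM scale all 6 were lower (median -0.46), and with leukocyte scaling all 6 were higher. mt-Co1, the catalytic subunit of cytochrome c oxidase, had 6423, 12750, 13143 and 12143 CPM in tuNK, against 13204, 11994, 11134 and 12386 CPM in spNK. Except for tuNK 1 the groups overlapped, and the log2 fold change was -0.13 ± 0.20 (adjusted p = 0.572). mt-Cytb, the cytochrome b of complex III and the last mRNA along the strand that carries most genes, had 2139, 3786, 3770 and 2758 CPM in tuNK, against 3657, 3307, 3004 and 3282 CPM in spNK. Its log2 fold change was -0.09 ± 0.17 (adjusted p = 0.659), and the highest 2 values were tuNK libraries.

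mt-Co3 had 1378, 1682, 1618 and 1522 CPM in tuNK, against 1484, 2224, 1954 and 2077 CPM in spNK, a log2 fold change of -0.32 ± 0.13 (adjusted p = 0.0443). The groups overlapped through spNK 1, and the call was lost without each of tuNK 1, tuNK 3, tuNK 4, spNK 2, spNK 3 and spNK 4. mt-Co2, which receives electrons from cytochrome c, gave a log2 fold change of -0.34 ± 0.17 (adjusted p = 0.0965) and, of the single libraries left out, passed the threshold only without tuNK 2. The ATP synthase mRNAs mt-Atp8 and mt-Atp6 gave -0.09 ± 0.14 (adjusted p = 0.597) and -0.21 ± 0.15 (adjusted p = 0.21). mt-Atp8 had 384, 598, 583 and 443 CPM in tuNK, against 571, 509, 537 and 514 CPM in spNK, so the groups overlapped.

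The ATP synthase genes share the start of one reading frame with the end of the other. The shared stretch of 43 bases is shorter than the reads of 60 nt, so a full-length read there also covers bases outside it. How such reads were split between the 2 genes was not examined. The shared bases are printed here with the start codon of mt-Atp6 and the stop codon of mt-Atp8 in capitals (GRCm38, plus strand, from the GENCODE M21 transcripts).
mt-Atp8 and mt-Atp6, chrM:7927-7969: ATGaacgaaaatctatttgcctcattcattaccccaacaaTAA

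**Figure D2:**
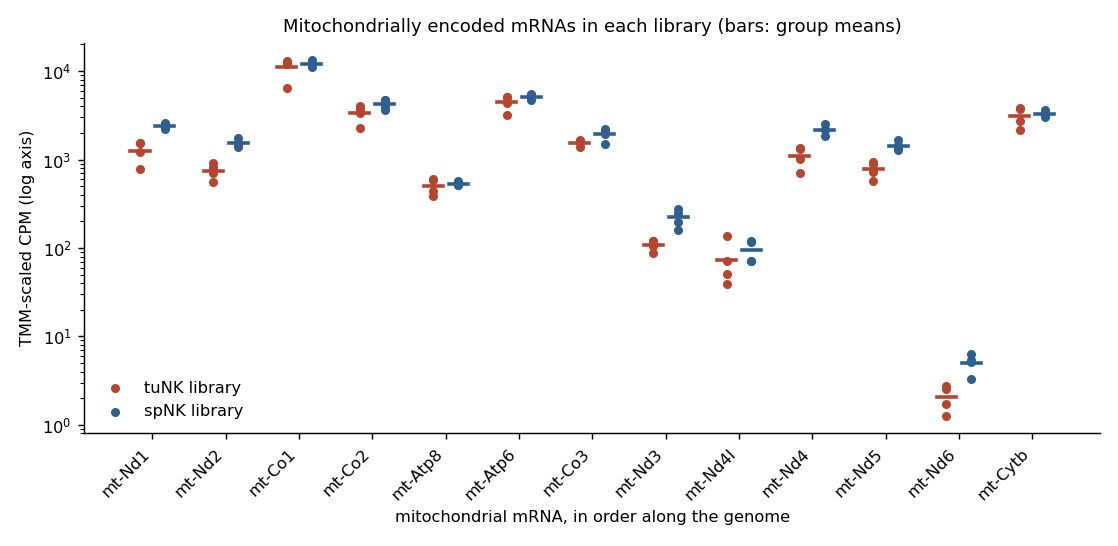
TMM-scaled CPM of the 13 mitochondrial mRNAs in each library (log axis), in their order along mitochondrial DNA; points are libraries (4 tuNK and 4 spNK) and bars are group means. The tuNK libraries lie below all spNK libraries in 6 of the 7 mt-Nd genes and in none of the other mRNAs; with leukocyte scaling, 12 of the 13 are called higher in tuNK.

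Shares within the mitochondrial mRNAs do not depend on the scaling between libraries. Complex I mRNAs held 14.9, 14.9, 14.7 and 13.4% of mitochondrial mRNA counts in tuNK 1 to 4, against 23.3, 22.1, 22.0 and 21.6% in spNK 1 to 4. The groups were far apart relative to their spread, 14.5 ± 0.737% in tuNK and 22.3 ± 0.753% in spNK. On the log2 scale, the median of the complex I mRNAs minus that of the other mitochondrial mRNAs was -0.82, and it lay between -0.84 and -0.73 under 22 alternatives. Against the nuclear subunits of the same complex, the mitochondrial mRNAs of complex I were lower by a median log2 of -1.22, between -1.33 and -1.11 under those alternatives. The scalings among the alternatives could hardly change either difference, because a factor for a whole library shifts both medians nearly alike.

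Summed per length, the nuclear subunits made up 26494, 26306, 27754 and 26493 TPM in tuNK, against 26203, 25767, 27176 and 25507 TPM in spNK. These sums overlapped between the groups, with a ratio of means of 1.02. In TMM-scaled CPM the nuclear sums did not overlap, at 14155 to 17803 in tuNK and 12564 to 14117 in spNK, a ratio of means of 1.23. The mitochondrial mRNAs of complex I summed to 4927 ± 961 TPM in tuNK and 11091 ± 1223 TPM in spNK, and those of complexes III, IV and V to 37277 ± 5996 TPM in tuNK and 51210 ± 3690 TPM in spNK. Neither mitochondrial sum overlapped between the groups in TPM, but on the TMM-scaled CPM scale the sum for complexes III, IV and V did (24060 ± 5746 in tuNK and 27345 ± 1780 in spNK).

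The ratio of the mitochondrial to the nuclear sum in TPM was 1.30, 1.88, 1.67 and 1.45 in tuNK, against 2.61, 2.35, 2.10 and 2.47 in spNK. Every tuNK ratio was below every spNK ratio, and the ratio of the group means was 0.661, or between 0.618 and 0.7 when 1 library was left out. Computed from estimated counts instead of TPM, an alternative chosen after seeing the data, it was 0.64.

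**Figure D3:**
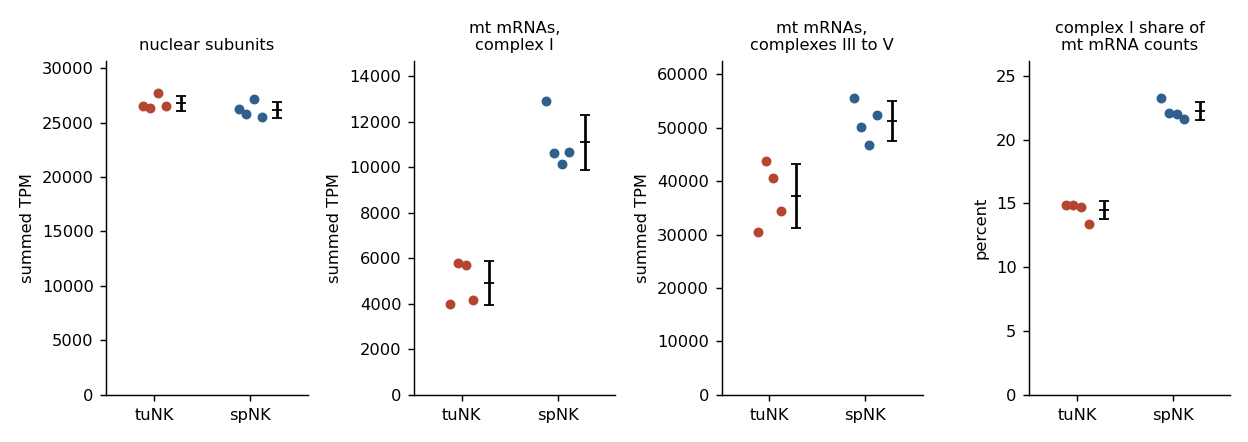
Summed TPM of nuclear subunits, of mitochondrial mRNAs of complex I and of those of complexes III to V, and the share of complex I in mitochondrial mRNA counts in percent; points are libraries and black marks show mean ± SD (n = 4 each). The nuclear sums overlap between tuNK and spNK in TPM (in TMM-scaled CPM they do not), and the complex I share is 13.4 to 14.9% in tuNK and 21.6 to 23.3% in spNK.

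Among the 35 nuclear subunits of complex I, 17 were higher in tuNK (48.6%), 1 was lower (2.86%) and 17 were not called, with a median of 0.23. Of all genes tested, 35.6% were higher and 34.0% lower, with a median of 0.02. On the TPM scale 11 of the 35 were higher and 11 lower, with a median of 0.04. Core subunits, which carry the flavin, the iron-sulfur clusters and the quinone site, were called higher in 4 of 7 (median 0.29), and supernumerary subunits, which surround that core, were called higher in 13 of 28 and lower in 1 (median 0.19). Ndufa12, a supernumerary subunit of the peripheral arm, had 119, 131, 155 and 140 CPM in tuNK, against 60.4, 64.4, 76.0 and 61.3 CPM in spNK. All tuNK libraries lay above all spNK libraries, and its log2 fold change of 1.06 ± 0.11 (adjusted p = 7.76e-06) was the only one above 1 in nuclear complex I.

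Ndufv1, the core subunit that binds flavin and accepts electrons from NADH, had 247, 238, 286 and 255 CPM in tuNK, against 128, 141, 175 and 136 CPM in spNK, a log2 fold change of 0.82 ± 0.11 (adjusted p = 5.66e-05). Its groups were apart as well. Ndufa2, a supernumerary subunit of the same arm, followed with 0.79 ± 0.10 (adjusted p = 4.58e-05). Ndufb8 of the membrane arm stood at 0.78 ± 0.10 (adjusted p = 4.67e-05), but its counts can be split with the annotated gene Gm20538, which overlaps it on the same strand. Ndufs1, a core subunit which carries several iron-sulfur clusters, gave 0.00 ± 0.08 (adjusted p = 0.991). Core subunits thus ranged from 0.00 to 0.82.

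Ndufb7, which faces the intermembrane space at the membrane arm, had 97.1, 116, 120 and 115 CPM in tuNK, against 149, 151, 144 and 135 CPM in spNK. It was the nuclear complex I subunit called lower, with no overlap between groups and a log2 fold change of -0.37 ± 0.09 (adjusted p = 0.00283); with leukocyte scaling it was 1.34. Ndufb3 (-0.23 ± 0.10, adjusted p = 0.0672) and Ndufv3 (-0.21 ± 0.10, adjusted p = 0.0759) had the next lowest fold changes and did not pass. Leaving out spNK 4, tuNK 3 or tuNK 4 brought Ndufb3 past the threshold.

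Complex II, succinate dehydrogenase, gave 1 call in each direction (25.0% each, against 35.6% higher and 34.0% lower of all genes tested). Sdhc, a membrane anchor that helps to hold the haem, had 171, 193, 229 and 207 CPM in tuNK, against 152, 158, 160 and 146 CPM in spNK, a log2 fold change of 0.38 ± 0.09 (adjusted p = 0.00421). Sdha, the flavoprotein that oxidises succinate and so also belongs to the TCA cycle, had 230, 258, 279 and 277 CPM in tuNK, against 304, 309, 313 and 303 CPM in spNK. Neither gene overlapped between the groups, and Sdha gave -0.23 ± 0.08 (adjusted p = 0.0238), a call that was lost without spNK 2. Sdhb, the iron-sulfur subunit, and Sdhd, the other anchor, gave 0.20 ± 0.10 (adjusted p = 0.0974) and 0.18 ± 0.11 (adjusted p = 0.165). Sdhb passed without tuNK 1, which made 2 of the 4 higher. The SD of log2 TPM over the 4 subunits was 0.349 ± 0.033 in tuNK libraries and 0.113 ± 0.048 in spNK libraries, so the subunits lay further from each other in tuNK.

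In complex III, 3 of the 8 nuclear subunits were higher in tuNK (37.5%) and 0 were lower, with a median of 0.02. All genes tested gave 35.6% higher, 34.0% lower and the same median, so the higher share was near theirs. On the TPM scale 2 of the 8 were higher and 4 lower, with a median of -0.22. Uqcrq, a small subunit beside cytochrome b, had 169, 185, 265 and 197 CPM in tuNK, against 117, 124, 130 and 111 CPM in spNK, a log2 fold change of 0.76 ± 0.13 (adjusted p = 0.00038). Uqcrb, which lies at the quinone-binding side, gave 0.59 ± 0.09 (adjusted p = 0.000222), and neither gene overlapped between groups. Uqcr11, the smallest subunit, gave 0.46 ± 0.13 (adjusted p = 0.00716), with spNK 3 at 99.1 CPM above tuNK 1 at 95.9 CPM. The Rieske iron-sulfur protein gene Uqcrfs1 (-0.15 ± 0.09, adjusted p = 0.172), the hinge protein gene Uqcrh (-0.15 ± 0.11, adjusted p = 0.256) and the core protein gene Uqcrc2 (-0.13 ± 0.08, adjusted p = 0.16) had the lowest fold changes and did not pass.

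In complex IV, 11 of the 16 nuclear subunits tested were higher in tuNK (68.8%) and 2 were lower (12.5%), with a median of 0.37. These counts include Ndufa4l2 (higher) and Cox6b2 (lower). Both passed the filter on low counts only through the group where they are high. Of all genes tested, 35.6% were higher and 34.0% lower. On the TPM scale complex IV had 5 higher and 3 lower. Of its 12 common subunits, 9 were higher and 1 was lower with TMM scaling. Their changes were small, the largest being Cox6b1, which links the 2 monomers of the enzyme. Cox6b1 had 254, 294, 342 and 330 CPM in tuNK, against 221, 215, 221 and 216 CPM in spNK, a log2 fold change of 0.48 ± 0.10 (adjusted p = 0.00112) with no overlap. Cox4i1, the regulatory subunit that binds adenine nucleotides, had 738, 890, 969 and 956 CPM in tuNK, against 707, 763, 768 and 690 CPM in spNK. The groups overlapped through tuNK 1, and the log2 fold change was 0.28 ± 0.10 (adjusted p = 0.0289). The call for Cox4i1 was lost without tuNK 2, tuNK 3, tuNK 4, spNK 1 or spNK 4, and the annotated gene Gm20388 overlaps it on the same strand.

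Cox7b (0.43 ± 0.09, adjusted p = 0.00142), Cox7a2 (0.40 ± 0.11, adjusted p = 0.00625) and Cox6a1 (0.33 ± 0.09, adjusted p = 0.00555) were higher in tuNK as well, and Cox8a gave 0.01 ± 0.08 (adjusted p = 0.923). Cox7a2l, which helps join complexes III and IV into supercomplexes, gave 0.34 ± 0.11 (adjusted p = 0.0213), a call lost without tuNK 3, tuNK 4 or spNK 1. Ndufa4 had 105, 127, 161 and 126 CPM in tuNK, against 164, 154, 169 and 150 CPM in spNK. It was the common subunit called lower (-0.30 ± 0.12, adjusted p = 0.0465), its groups overlapped through tuNK 3, and the call was kept only without tuNK 3 when single libraries were left out.

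Among the 8 isoforms of complex IV that are restricted to certain tissues, 4 were tested. Ndufa4l2, Cox6b2 and Cox7a1 of these had the largest fitted fold changes of all members, and Cox6a2 was not called. Ndufa4l2 and Cox6b2 passed the filter on low counts only through the group where they are high, so their differences are descriptions. Ndufa4l2, a paralogue of Ndufa4 known in mouse cells as a target of the hypoxia-inducible factor HIF-1, had 2.77, 2.59, 1.02 and 1.58 CPM in tuNK and 0 counts in every spNK library. Set against a floor of 3 counts per spNK library (0.0631 CPM), it was at least 31.5-fold higher in tuNK, or at least 27.4-fold without the highest tuNK library. It rested on 40 to 111 estimated counts per tuNK library, and its level was far below that of Ndufa4, at 0.242 to 0.994% of the summed TPM of the 2 genes. This floor allows for counting error alone, because reads copied by PCR are not separate molecules. Ndufa4l2 overlaps Shmt2 on the opposite strand by 32 bases.

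Cox7a1, the isoform of heart and skeletal muscle, had 4.22, 3.73, 3.25 and 6.28 CPM in tuNK, against 1.00, 1.17, 1.00 and 1.16 CPM in spNK. All tuNK libraries were above all spNK libraries, with a log2 fold change of 2.01 ± 0.32 (adjusted p = 0.000195), and 3.69 with leukocyte scaling. It supplied 6.55 to 11.9% of the summed TPM of Cox7a1 and Cox7a2 in tuNK and 2.60 to 3.81% in spNK. Mesenchymal genes were also higher in each tuNK library, and their part in this difference was not tested. Cox6b2, the testis isoform of Cox6b1, went the other way, with 0.129, 0.443, 0.229 and 0 CPM in tuNK, against 6.70, 6.55, 16.4 and 10.2 CPM in spNK. It passed the filter on low counts through spNK alone, the group where it is high, so its fitted log2 fold changes of -5.60 ± 0.70 with TMM and -3.99 with leukocyte scaling are given as a description. Plasma cell genes summed to 174, 189, 177 and 178 CPM in tuNK, against 712, 1871, 4183 and 2830 CPM in spNK, and dendritic cell genes to 37.1 to 55.8 CPM in tuNK and 173 to 426 CPM in spNK. Both lists were highest in spNK 3, as Cox6b2 was. The plasma cell sum in tuNK was mostly Xbp1 (98.0 CPM on average, 89.5 CPM in spNK) and Sdc1 (39.1 CPM, 4.46 CPM in spNK). Jchain averaged 0.00635 CPM in tuNK and 536 CPM in spNK, and of the 7 plasma cell genes 1 was called higher in tuNK and 4 lower. The summed erythroid genes (0.362 to 2.04 CPM in tuNK and 181 to 820 CPM in spNK), neutrophil genes (0.186 to 0.839 CPM in tuNK and 33.7 to 136 CPM in spNK), B cell genes (0.842 to 2.04 CPM in tuNK and 17.2 to 38.7 CPM in spNK) and macrophage genes (64.0 to 80.4 CPM in tuNK and 60.4 to 318 CPM in spNK) were highest in spNK 3 too. The macrophage sum in tuNK was mostly Cd14 (60.4 CPM on average, 0.28 CPM in spNK), and of its 10 genes tested 2 were higher in tuNK and 4 lower. Platelet genes, at 5.36 to 7.50 CPM in tuNK and 343 to 628 CPM in spNK, were highest in spNK 4. The leukocyte (17443 CPM), NK (13960 CPM), T cell (196 CPM) and mesenchymal (1127 CPM) sums had their lowest spNK value in spNK 3. The part of these lists in the level of Cox6b2 was not tested.

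Cox6a2, the other muscle isoform tested, had 0.388, 1.12, 2.49 and 1.76 CPM in tuNK, against 0.675, 1.21, 1.55 and 0.0453 CPM in spNK, with overlapping groups (0.72 ± 0.83, adjusted p = 0.457). Cox4i2, the lung isoform, reached at most 0.179 CPM in tuNK and 0.388 CPM in spNK and was not tested. Cox7b2, Cox8b and Cox8c had 0 counts in all 8 libraries. The promoters of Cox7a1, which was called higher, and of Cox6b2, whose difference is a description, are shown because these genes went opposite ways. Ndufa4l2 had no promoter entry. Capitals mark the pentamer CCAAT or its reverse complement ATTGG (RefSeq, GRCm38.p6, from 250 bases before to 50 after the start, in the direction of transcription).
Cox7a1, chr7:30183921-30184220 (plus strand): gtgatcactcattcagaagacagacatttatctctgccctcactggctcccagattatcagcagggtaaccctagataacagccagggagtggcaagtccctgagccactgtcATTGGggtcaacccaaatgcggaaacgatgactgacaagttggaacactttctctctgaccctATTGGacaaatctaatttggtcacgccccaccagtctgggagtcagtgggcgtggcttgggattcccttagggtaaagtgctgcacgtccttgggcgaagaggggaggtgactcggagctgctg
Cox6b2, chr7:4753045-4753344 (minus strand): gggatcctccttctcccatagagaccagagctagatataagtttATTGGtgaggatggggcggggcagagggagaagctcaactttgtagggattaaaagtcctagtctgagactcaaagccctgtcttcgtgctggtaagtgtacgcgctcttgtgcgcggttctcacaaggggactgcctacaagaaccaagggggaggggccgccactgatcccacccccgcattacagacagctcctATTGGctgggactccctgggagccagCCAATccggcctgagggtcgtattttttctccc
The pentamer occurred 2 times for Cox7a1 and 3 times for Cox6b2, and 41.1% of all genes with a promoter entry held it at least once.

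**Figure D4:**
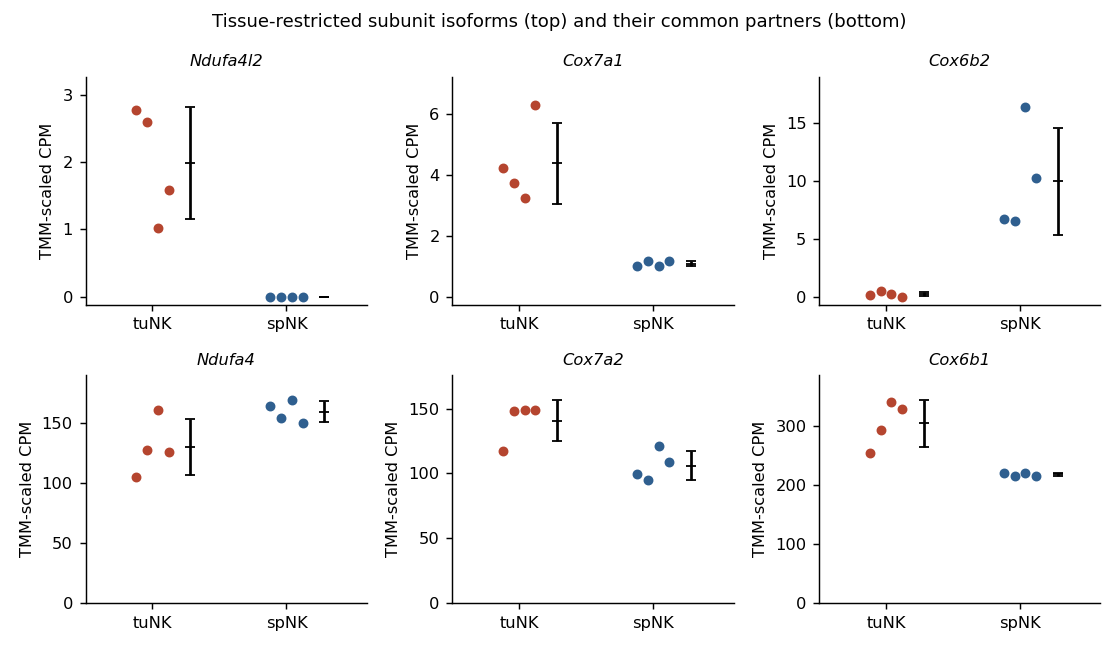
TMM-scaled CPM of 3 tissue-restricted complex IV isoforms (top) and of their common partners (bottom) in each library; points are libraries and black marks show mean ± SD (n = 4 each). Ndufa4l2 is at 0 in all spNK libraries, Cox7a1 lies above 3 CPM in tuNK and at or below 1.17 CPM in spNK, and Cox6b2 is at most 0.443 CPM in tuNK and at least 6.55 CPM in spNK.

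ATP synthase had 8 of 15 nuclear subunits higher in tuNK (53.3%) and 1 lower (6.67%), with a median of 0.27. Of all genes tested, 35.6% were higher and 34.0% lower, with a median of 0.02. On the TPM scale 6 of the 15 were higher and 5 lower. Atp5b, the catalytic β subunit of the F1 head and the most abundant nuclear subunit per length in tuNK (1678 ± 110 TPM), had 1945, 2005, 2289 and 2090 CPM in tuNK, against 1028, 1025, 1395 and 1153 CPM in spNK. The groups did not overlap and the log2 fold change was 0.86 ± 0.12 (adjusted p = 6.27e-05). Atp5c1, the γ shaft that turns inside the head, gave 0.86 ± 0.09 (adjusted p = 1.29e-05). Atp5a1, the α subunit that alternates with β in the same ring, had 1027, 1067, 1208 and 1096 CPM in tuNK, against 1032, 1103, 1307 and 1129 CPM in spNK. It overlapped between groups (-0.06 ± 0.10, adjusted p = 0.625), and the difference between Atp5b and Atp5a1 was not tested. Atp5h, subunit d of the peripheral stalk, was the member called lower, with 219, 266, 296 and 282 CPM in tuNK, against 357, 375, 351 and 322 CPM in spNK (-0.40 ± 0.10, adjusted p = 0.00469; 1.31 with leukocyte scaling). Atp5j, another stalk subunit, gave -0.10 ± 0.08 (adjusted p = 0.31).

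The 3 genes for subunit c, which encode the same mature protein of the rotor ring behind different import signals, were all higher in tuNK. Atp5g2 had 286, 322, 364 and 391 CPM in tuNK, against 174, 183, 229 and 175 CPM in spNK, a log2 fold change of 0.84 ± 0.12 (adjusted p = 0.000114). Atp5g1 gave 0.56 ± 0.13 (adjusted p = 0.00223) and Atp5g3 gave 0.40 ± 0.09 (adjusted p = 0.00244), each with no overlap between groups. The make-up of their summed TPM differed as well: Atp5g2 supplied 37.8 to 43.4% in tuNK and 32.1 to 35.7% in spNK, and Atp5g3 supplied 40.0 to 44.1% in tuNK and 47.3 to 50.7% in spNK. Atp5g1 supplied 16.5 to 18.6% in tuNK and 15.7 to 17.6% in spNK, so its shares overlapped. Atpif1, which encodes the inhibitor that blocks reverse action of the enzyme and whose symbol lies outside the name rule, had 88.1, 105, 108 and 105 CPM in tuNK, against 77.0, 90.5, 158 and 104 CPM in spNK (-0.08 ± 0.19, adjusted p = 0.733). Complex V supplied 32.9 ± 0.159% of the summed TPM of nuclear subunits in tuNK and 31.6 ± 0.306% in spNK (SD, n = 4 each), the only complex whose share in tuNK lay above that in spNK without overlap. Complexes II (1.97 to 2.08% in tuNK and 2.10 to 2.25% in spNK) and III (9.50 ± 0.166% in tuNK and 9.95 ± 0.109% in spNK) had lower shares in tuNK without overlap.

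Promoter sequence was examined for what members share beyond their names. RefSeq (GRCm38.p6) held promoters for 66 of the 82 nuclear subunits, from 250 bases before to 50 after the start, and motifs were searched on both strands. The palindrome CGCATGCG, the core bound by NRF1, a regulator of respiratory chain genes, occurred in 9 members (13.6%), against 2.07% of 27025 genes. These were Ndufa8, Uqcr11, Cox6a1 and Atp5g2, all higher in tuNK, and Ndufa11, Uqcrc1, Atp5k, Atp5l and Atp5j, not called. AAGATGGCG, bound by YY1, occurred in 7 members (10.6%), against 1.64% of genes. Of these 5 encode complex I subunits (Ndufc1, Ndufa9 and Ndufs6, higher in tuNK, and Ndufs7 and Ndufs4, not called), and 2 encode ATP synthase subunits (Atp5j2, higher, and Atp5j, not called). CCGGAAG, bound by ETS factors such as GABP, occurred in 16 members (24.2%), against 9.93% of genes. Of these 16, 6 were higher in tuNK, 2 were lower (Ndufb7 and Atp5h) and 8 were not called. TCAAGGTCA, bound by oestrogen-related receptors, occurred in Sdhd and Atp5g3 (3.03%), against 0.466% of genes. The GC box GGGCGG (39.4% of members against 38.2% of genes) and the core ACGTG of hypoxia elements (24.2% of members against 21.8% of genes) were about as common in members as in all genes. Overlap between the motifs searched was not removed, and a match is not a bound site.

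The promoters of 3 members are shown with the NRF1 palindrome (Atp5g2 and Uqcrc1) or the YY1 motif (Ndufa9) in capitals, because genes with the same motif gave different calls. The motif begins 41 bases before the start in Atp5g2, which was higher in tuNK, and 31 bases after it in Uqcrc1, which was not called (-0.07 ± 0.09, adjusted p = 0.536). The YY1 motif begins 29 bases after the start in Ndufa9, which was higher in tuNK (0.50 ± 0.10, adjusted p = 0.00106).
Atp5g2, chr15:102670998-102671297 (minus strand): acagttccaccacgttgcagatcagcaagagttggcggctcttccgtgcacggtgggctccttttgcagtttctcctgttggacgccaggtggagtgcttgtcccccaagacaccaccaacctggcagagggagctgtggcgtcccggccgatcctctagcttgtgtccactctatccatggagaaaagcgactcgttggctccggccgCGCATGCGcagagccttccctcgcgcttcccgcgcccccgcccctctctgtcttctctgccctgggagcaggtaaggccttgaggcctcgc
Uqcrc1, chr9:108936398-108936697 (plus strand): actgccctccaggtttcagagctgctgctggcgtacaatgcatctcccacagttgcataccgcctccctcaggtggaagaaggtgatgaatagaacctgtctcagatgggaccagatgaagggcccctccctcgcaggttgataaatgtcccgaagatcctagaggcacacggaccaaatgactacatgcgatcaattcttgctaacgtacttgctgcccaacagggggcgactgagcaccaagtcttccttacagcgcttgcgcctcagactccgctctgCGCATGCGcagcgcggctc
Ndufa9, chr6:126849095-126849394 (minus strand): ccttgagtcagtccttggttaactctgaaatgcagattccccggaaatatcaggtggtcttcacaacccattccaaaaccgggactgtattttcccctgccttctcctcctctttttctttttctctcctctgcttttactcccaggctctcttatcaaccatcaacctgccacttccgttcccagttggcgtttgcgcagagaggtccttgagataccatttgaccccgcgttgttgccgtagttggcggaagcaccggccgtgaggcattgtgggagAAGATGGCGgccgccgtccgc

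Genes that build, feed and regulate the chain were described from 11 lists. Of their 147 tested genes 71 were higher in tuNK (48.3%) and 27 lower (18.4%), with a median of 0.36. Over all genes tested, 35.6% were higher and 34.0% lower. With leukocyte scaling 142 of the 147 were higher and 1 lower, against 78.0% and 6.11% of all genes. The list of membrane carriers, pores and import proteins stood furthest from all genes, with 16 of 18 higher in tuNK and a median of 0.96; under 8 scalings, TPM included, 15 to 18 were higher and 0 lower. Slc25a4, the ADP/ATP carrier of heart and muscle, had 599, 550, 671 and 548 CPM in tuNK, against 107, 120, 133 and 105 CPM in spNK, a log2 fold change of 2.35 ± 0.11 (adjusted p = 3.03e-08). Hspa9, the matrix chaperone that pulls proteins through the import channel, gave 2.44 ± 0.13 (adjusted p = 9.53e-08), and Tomm20, an import receptor of the outer membrane, gave 1.28 ± 0.11 (adjusted p = 2.05e-06). No library of 1 group overlapped the other in these 3 genes.

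Electron carriers and ubiquinone synthesis had 12 of 20 genes higher and 1 lower (9 and 2 on the TPM scale). With TMM scaling these were 60.0% and 5.0%, against 35.6% and 34.0% of all genes tested. This list also holds Cyc1 and Ndufab1, subunits of complexes III and I whose symbols lie outside the name rule. Cycs, cytochrome c itself, had 212, 226, 255 and 237 CPM in tuNK, against 134, 108, 117 and 108 CPM in spNK (1.00 ± 0.10, adjusted p = 4.83e-06). Pdss1, which makes the tail of ubiquinone, gave 1.86 ± 0.23 (adjusted p = 3.12e-05), and Adck3 (Coq8a), needed for ubiquinone synthesis, gave -1.47 ± 0.21 (adjusted p = 0.000112). In the TCA cycle 10 of 16 were higher (62.5%) and 2 lower (12.5%), or 4 and 3 on the TPM scale. Mdh2, malate dehydrogenase, gave 1.13 ± 0.10 (adjusted p = 2.74e-06) and Cs, citrate synthase, gave 0.88 ± 0.10 (adjusted p = 1.42e-05), whereas Ogdh, the E1 subunit of the 2-oxoglutarate dehydrogenase complex, gave -0.70 ± 0.07 (adjusted p = 5.09e-06).

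Assembly factors were called in both directions, as all genes tested were (35.6% higher and 34.0% lower with TMM scaling). In complex I assembly 7 of 15 were higher and 4 lower (median 0.17, and -0.16 on the TPM scale), among them Ndufaf5 (1.20 ± 0.14, adjusted p = 1.67e-05), Ndufaf2, the paralogue of Ndufa12 that occupies its place during assembly (1.05 ± 0.17, adjusted p = 0.000247), and Acad9 (0.67 ± 0.11, adjusted p = 0.0003), all higher. In the list for complexes II and III 5 of 10 were higher and 3 lower (2 and 3 on the TPM scale). Uqcc2 and Uqcc3, both needed for the assembly of cytochrome b, had opposite signs (1.36 ± 0.12, adjusted p = 2.06e-06, and -1.41 ± 0.12, adjusted p = 2.58e-06), and Ttc19 gave 1.56 ± 0.21 (adjusted p = 6.38e-05). In complex IV assembly 6 of 22 were higher and 5 lower (5 and 8 on the TPM scale), led by the copper chaperone Sco2 (1.66 ± 0.14, adjusted p = 1.9e-06), Coa5 (-0.72 ± 0.09, adjusted p = 4.39e-05) and the membrane insertase Cox18 (1.00 ± 0.13, adjusted p = 4.44e-05). In complex V assembly 0 of 4 were higher and 1 was lower (3 lower on the TPM scale and 2 by library size alone), Tmem70 (-0.39 ± 0.11, adjusted p = 0.00714), with Atpaf1 (0.15 ± 0.11, adjusted p = 0.258) and Atpaf2 (-0.22 ± 0.11, adjusted p = 0.0879) not called.

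Genes acting on mitochondrial DNA and RNA did not share 1 direction with the mitochondrial mRNAs. Upkeep and transcription of mitochondrial DNA had 4 of 16 higher and 6 lower with TMM scaling (25.0% and 37.5%, against 35.6% and 34.0% of all genes). On the TPM scale 1 was higher and 6 lower, and with leukocyte scaling 14 were higher. Mterf1a, a transcription termination factor, had 3.24, 3.63, 2.95 and 3.55 CPM in tuNK, against 9.10, 8.25, 8.90 and 11.0 CPM in spNK (-1.48 ± 0.19, adjusted p = 4.77e-05). The mitochondrial topoisomerase gene Top1mt gave -1.23 ± 0.16 (adjusted p = 5.82e-05), and Ssbp1, which coats single-stranded mitochondrial DNA, gave 0.74 ± 0.11 (adjusted p = 0.000123). Processing and stability of mitochondrial RNA had 9 of 16 higher and 1 lower, with a median of 0.58 (7 and 2 on the TPM scale, with a median of 0.18). In that list Slirp, whose protein stabilises mitochondrial mRNAs together with LRPPRC, gave 0.70 ± 0.10 (adjusted p = 9.28e-05), Hsd17b10, a subunit of the enzyme that cuts tRNAs at their 5′ ends, gave 0.83 ± 0.10 (adjusted p = 3.72e-05), and Fastk gave 0.74 ± 0.10 (adjusted p = 7.76e-05).

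Among regulators of mitochondrial biogenesis, 1 of 8 tested was higher and 3 were lower with TMM scaling (0 and 3 on the TPM scale). The lower share, 37.5%, was near the 34.0% of all genes, and the 3 lower genes turned to higher with leukocyte scaling. Yy1 had 48.4, 56.2, 47.4 and 49.0 CPM in tuNK, against 75.6, 90.2, 89.4 and 98.1 CPM in spNK (-0.81 ± 0.10, adjusted p = 3.24e-05). The subunits of GABP, Gabpb1 (-0.47 ± 0.09, adjusted p = 0.000685) and Gabpa (-0.27 ± 0.08, adjusted p = 0.00824), were lower as well. Ucp2, an inner membrane carrier of the uncoupling protein family that is common in leukocytes, had 202, 259, 183 and 227 CPM in tuNK, against 1008, 1043, 1004 and 865 CPM in spNK (-2.17 ± 0.12, adjusted p = 1.05e-07). It stayed negative with leukocyte scaling, at -0.49. Nnt, the transhydrogenase that makes NADPH from the proton gradient, gave 0.83 ± 0.10 (adjusted p = 2.09e-05).

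**Figure D5:**
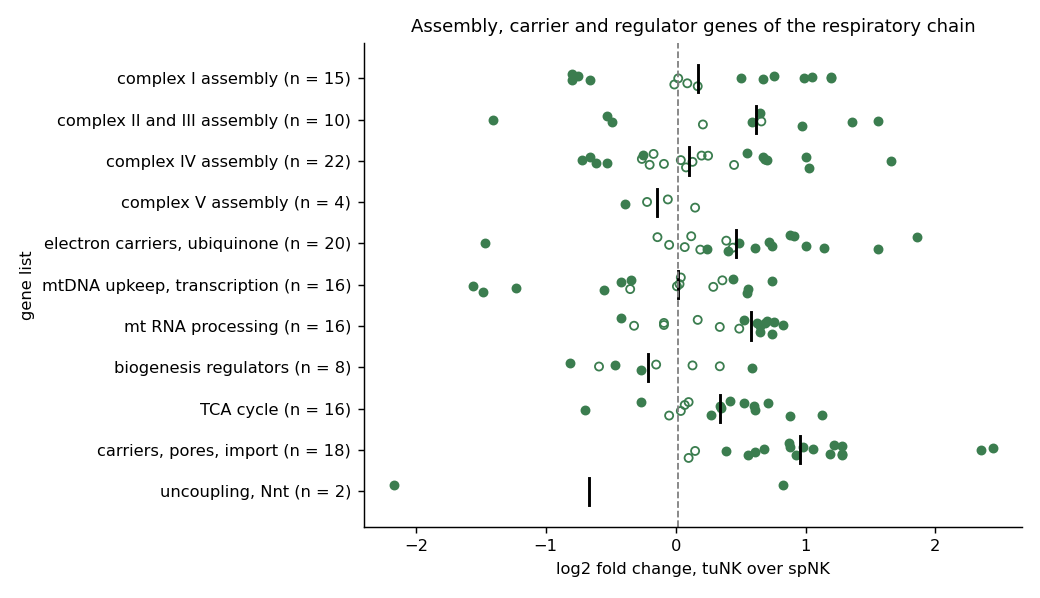
Log2 fold change (tuNK over spNK, TMM scaling) of each tested gene in 11 lists of assembly factors, carriers and regulators; filled points passed the test, open points did not, black bars are list medians and the dashed line is the median of all genes. The list of carriers, pores and import proteins has 16 of 18 genes higher in tuNK. The regulators have 1 of 8 higher and 3 lower, and all genes tested 35.6% higher and 34.0% lower. With leukocyte scaling the medians of the lists are all above 1, and that of all genes is 1.72.

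The remaining members add little. Atp5s gave 0.15 ± 0.41 (adjusted p = 0.75). Atp5sl had 9.42, 10.8, 10.1 and 13.5 CPM in tuNK, against 18.6, 19.0, 19.5 and 18.4 CPM in spNK, without overlap (-0.78 ± 0.14, adjusted p = 0.000548). The 4 pseudogenes did not exceed 0.152 CPM in any library and were not tested. The annotation places 46 of the 101 members over another gene on either strand, and counts of the pairs on opposite strands can be told apart only if strand was used in the counting.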

How the data were processed

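RNA was sequenced from 4 tuNK and 4 spNK samples, grouped by title. Per the labels' protocols, libraries came from 20 ng of RNA (integrity score above 7) by a directional kit with selection of polyadenylated RNA, read as 60 nt pairs. The submitters' processing notes name FastQC 0.11.9 for read checks, STAR for alignment, Salmon for quantification and GRCm38 (mm10) as the genome. Other versions, the annotation release and the use of strand are stated in no source used here. The deposited counts are the authors' estimated counts per gene (7.9 to 8.82% of values per library are not whole). The authors' TPM form another deposited table, each library summing to 1000000. All columns were mapped to samples (0 left over). Libraries of 1 group differed by more than counting noise (chi-square per degree of freedom 29.2 to 110). Positions come from GENCODE M21, where 45143 of the 45706 identifiers were found.

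Estimated counts were rounded, filtered with filterByExpr of edgeR 4.0.16 (R 4.3.3), scaled with TMM and tested with the quasi-likelihood F test (robust, group only) with Benjamini-Hochberg adjustment over 14006 genes at 0.05. The test was checked on simulated counts, where it recovered 46% of the changes set to a log2 fold of 1. The simulation gave all genes the same dispersion, so this share does not hold for each member. Fold changes are log2, tuNK minus spNK, with SE. Levels of genes are TMM-scaled CPM, and sums and shares across genes are TPM or counts, as stated. On the first principal component (86.8% of variance) tuNK lay apart from spNK. Alternatives were 5 other scalings (among them each library scaled to 36 leukocyte genes), 2 filters, DESeq2 1.42.0, voom and trend fits of limma 3.58.1 (the trend fit on log2 of TPM plus 1 or plus 0.1), a fold of 1.5, a replicate block and leaving out libraries. The samples' replicate numbers are not stated to mark shared animals.

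Named in any case were the mitochondrial mRNAs, the Sdh genes, listed isoform pairs, subunit c genes and Atpif1, the 3 highest and 3 lowest nuclear fold changes per complex and up to 3 genes with the smallest adjusted p per pathway list. Other genes with values (Ncr1, Ndufs1, Ndufb8, Ndufa9, Uqcrc1, Atp5s, Atp5sl) and genes with a promoter motif were named after their values were seen, and the motifs searched were chosen then too. SE and SD reflect only how far these samples spread, which may be technical, and the floor covers counting error only. The members, gene lists and alternatives were chosen with earlier results of these data known. The values of 1 gene among the members are not reported here.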

Additional observations from a re-analysis of the deposited data

Results flagged for a closer look

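In 103 sets of 4 libraries of 1 group, the lowest or highest library was compared with the spread of the others (gap to the nearest library over the whole range, against Dixon's critical value), and 7 stood apart; chance alone gives about 1 in 20. mt-Co1 was 6423 CPM in tuNK 1 and 12143 to 13143 CPM in the other tuNK libraries. Cox7a2 was 117 CPM in tuNK 1 and 148 to 149 CPM in the others. The complex I share of mitochondrial mRNA counts was 13.4% in tuNK 4 and 14.7 to 14.9% in the others. Uqcr11 was 99.1 CPM in spNK 3 and 69.6 to 74.4 CPM in the other spNK libraries. Atp5g2 was 229 CPM in spNK 3 and 174 to 183 CPM in the others. Cox4i2 was 0.388 CPM in spNK 3 and 0 in the others. Atp5j was 129 CPM in spNK 4 and 140 to 142 CPM in the others.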

How the results depend on the processing

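The mitochondrial mRNAs lay below the nuclear subunits, and the complex I mRNAs below the other mitochondrial mRNAs, under all 22 alternatives. The other scalings among these could hardly change either difference, because a factor for a whole library shifts both sides nearly alike. With leukocyte scaling the median log2 fold change was 1.72 for all genes, 1.98 for nuclear subunits and 1.37 for mitochondrial mRNAs, with 10929 genes higher and 856 lower, 77 and 1 nuclear subunits, 12 and 0 mitochondrial mRNAs, and 142 and 1 genes of the pathway lists. Counting both genomes, it gave 41 higher and 0 lower in complex I, 4 and 0 in complex II, 9 higher in complex III, 18 and 1 in complex IV and 17 and 0 in complex V. Genes called lower with TMM turned positive: mt-Nd5 0.84, mt-Nd1 0.81, mt-Nd4 0.73, mt-Nd2 0.67, mt-Nd3 0.65, mt-Co3 1.38, Ndufb7 1.34, Sdha 1.47, Ndufa4 1.43, Atp5h 1.31, Coa5 0.98, Tmem70 1.32, Top1mt 0.50, Gabpa 1.45, Gabpb1 1.23, Yy1 0.88 and Ogdh 1.01. The scaling itself sets the leukocyte genes, lower in tuNK with TMM, to equal levels. For the other settings the cause was not tested.

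By library size alone the median of all genes was -0.15 and that of nuclear subunits 0.10, with 16 nuclear subunits lower, 12 lower in complex I, 4 lower in complex III, 6 higher in complex IV and 4 lower in complex V. On log2 TPM plus 0.1, the medians were -0.19 for all genes, 0.04 for nuclear subunits and -0.74 for mitochondrial mRNAs, with 24 nuclear subunits higher and 24 lower, and 12 mitochondrial mRNAs lower. Complex I then had 11 higher and 17 lower, complex II 0 higher, complex III 5 lower, complex IV 5 higher and 6 lower, and complex V 7 lower. With TPM plus 1 these were -0.14, 0.04 and -0.74, 23 and 24, 12, 11 and 17, 0, 5, 4 and 6, and 7. Against a fold of 1.5, 3028 genes were lower, 9 nuclear subunits higher and 1 lower, and 30 pathway genes higher and 8 lower. It left 4 higher in complex I, 0 and 0 in complex II, 0 in complex III, 2 and 1 in complex IV, and 3 and 0 in complex V. The median of all genes was 0.03 with DESeq2 and with its size factors, -0.02 without a filter and -0.03 with the upper quartile.

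Leaving out 1 library gave 34 to 44 nuclear subunits higher and 3 to 6 lower, 6 to 8 mitochondrial mRNAs lower, 1 to 2 higher and 0 to 1 lower in complex II, 1 to 3 lower in complex IV, all-gene medians of 0.00 to 0.02, mitochondrial medians of -0.84 to -0.28, differences between the genomes of -1.06 to -0.59, and differences of complex I from the other mitochondrial mRNAs of -0.84 to -0.73. Without spNK 3 and tuNK 1 together, 3 genes of complex II were higher, and that last difference was -0.84. A replicate block left 41 nuclear subunits higher, 5 lower and 7 mitochondrial mRNAs lower, and changed the call of none of the 82 named genes with a test. Deviations from the group means correlated by -0.008, 0.042, 0.031 and 0.022 between libraries with the same number. Between libraries with different numbers the correlations ran from -0.064 to 0.035. Values this small cannot show whether or not the numbers mark shared animals. Of the tested subunits, Ndufa4l2, Cox6b2, Cox6a2, Cox7a1 and mt-Nd6 had the fewest counts in their lowest library, which limits the precision of their values.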

Other observations

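The mitochondrial ribosomal RNAs, which lie ahead of mt-Nd1 and are not members, had the widest gap of the mitochondrial transcripts examined. mt-Rnr1 had 204, 323, 330 and 322 CPM in tuNK, against 1674, 1771, 1675 and 2587 CPM in spNK, and mt-Rnr2 had 628, 957, 952 and 850 CPM in tuNK, against 4679, 4562, 4084 and 5912 CPM in spNK. No library of 1 group overlapped the other, and the ratios of the group means, tuNK over spNK, were 0.153 and 0.176. Both fell in tuNK by the test of edgeR, mt-Rnr1 with a log2 fold change of -2.71 (adjusted p = 9.74e-07) and mt-Rnr2 with -2.50 (adjusted p = 3.05e-07). The libraries were selected for polyadenylated RNA, and its part in these values was not tested.

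Levels of the mitochondrial mRNAs lay further from each other in tuNK than in spNK. The SD of log2 TPM over the 12 mRNAs other than mt-Nd6 was 1.67 ± 0.0529 in tuNK and 1.38 ± 0.056 in spNK (SD over 4 libraries each), without overlap. Among nuclear subunits above 10 TPM in every library, it was also higher in tuNK without overlap in complex II (0.349 ± 0.033 in tuNK and 0.113 ± 0.048 in spNK) and complex III (0.888 ± 0.0523 in tuNK and 0.777 ± 0.014 in spNK). It overlapped in complex I (1.11 to 1.16 in tuNK and 1.07 to 1.12 in spNK), complex IV (0.888 ± 0.0239 in tuNK and 0.922 ± 0.0274 in spNK) and complex V (0.827 ± 0.0216 in tuNK and 0.839 ± 0.015 in spNK). These values are descriptions, with no test.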
